A study of Homo sapiens with 6 samples.

Results

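PTPRZ1, GRPR, PROM1 and VWDE are 4 genes whose array signal was far lower in derivatives of the human embryonic stem cell line WA09 than in the undifferentiated line, and PTN, MDK and GRP encode ligands of the receptors among them. These 7 genes, of 18417 measured with a probe set of their own, were chosen by name. The first 4 were chosen for large falls from the stem cells, so their differences are given as a description without a test. This holds for SMC versus INM as well, since that comparison reuses the arrays they were chosen on. The 3 ligands were added for their role and were tested. The rule set no numerical limit. Total RNA was hybridised to Affymetrix expression arrays, 1 array per sample, in 3 groups of 2. Undifferentiated WA09 cells (hESC) were kept in StemPro defined medium. Nascent mesoderm cells positive for ISL1 (INM) and smooth muscle cells (SMC) were derived from them with BMP4 (50 ng/ml) plus Wnt3a (25 ng/ml), and were taken at day 4 (INM) and day 21 (SMC). All groups come from 1 line, and nothing in the labels says that replicates were separate cultures, so p-values rest on the spread of these samples alone, and that spread may be technical. Levels are log2 RMA signals, and a change is a difference of group means on that scale with its standard error (SE).

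Only some of the 7 genes encode surface proteins, so the name stem cell surface genes fits PTPRZ1, GRPR and PROM1. PTPRZ1 is a receptor tyrosine phosphatase of neural progenitors and glia. Its secreted, heparin-binding ligands pleiotrophin (PTN) and midkine (MDK) reduce its phosphatase activity. GRPR is a G protein-coupled receptor that signals through Gq and phospholipase C when it binds gastrin-releasing peptide (GRP). PROM1, also called CD133, is a membrane protein of cell protrusions and a common marker of stem and progenitor cells. VWDE encodes a protein with von Willebrand factor D and EGF-like domains, and in the axolotl it is known from limb regeneration.

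The promoter windows of the 4 genes with the large falls are shown because these genes were high in the same cells and then took different courses. Each runs from 250 bases before to 50 bases after the annotated start in RefSeq, build GRCh38.p14. They lie at chr7:121872911-121873210 (plus strand) for PTPRZ1, chrX:16123315-16123614 (plus strand) for GRPR, chr4:16083974-16084273 (minus strand) for the first of 4 listed starts of PROM1, and chr7:12403816-12404115 (minus strand) for VWDE. Capitals mark matches on either strand to the 6 motifs named below.
PTPRZ1: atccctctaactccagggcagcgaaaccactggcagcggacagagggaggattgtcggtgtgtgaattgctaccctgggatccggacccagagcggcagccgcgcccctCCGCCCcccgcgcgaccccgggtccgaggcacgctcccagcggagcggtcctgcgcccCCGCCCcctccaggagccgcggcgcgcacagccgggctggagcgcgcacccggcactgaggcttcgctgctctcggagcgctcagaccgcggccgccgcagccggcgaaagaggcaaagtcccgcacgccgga
GRPR: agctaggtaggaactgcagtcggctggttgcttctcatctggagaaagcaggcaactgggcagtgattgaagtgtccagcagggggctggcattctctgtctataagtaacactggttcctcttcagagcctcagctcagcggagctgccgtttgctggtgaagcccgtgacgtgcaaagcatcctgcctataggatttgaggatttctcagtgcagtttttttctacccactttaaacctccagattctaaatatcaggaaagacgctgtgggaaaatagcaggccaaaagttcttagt
PROM1: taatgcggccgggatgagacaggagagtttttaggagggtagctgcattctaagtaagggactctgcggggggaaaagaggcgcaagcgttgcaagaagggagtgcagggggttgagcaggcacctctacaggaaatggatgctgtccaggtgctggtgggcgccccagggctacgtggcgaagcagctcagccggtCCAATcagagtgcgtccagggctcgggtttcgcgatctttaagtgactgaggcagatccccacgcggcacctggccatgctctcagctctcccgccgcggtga
VWDE: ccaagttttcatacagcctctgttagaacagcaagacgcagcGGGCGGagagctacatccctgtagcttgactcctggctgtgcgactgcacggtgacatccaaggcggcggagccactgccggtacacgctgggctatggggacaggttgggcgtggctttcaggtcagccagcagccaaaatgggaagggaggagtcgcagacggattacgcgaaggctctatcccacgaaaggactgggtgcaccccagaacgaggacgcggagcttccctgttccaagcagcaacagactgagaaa

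The windows differed in base composition. The PTPRZ1 window held 38 CpG dinucleotides and 73.3% G and C, and 90.1% of the 35116 windows in the table held fewer CpG. The GRPR window held 6 CpG at 49.0% G and C, with 33.7% of windows below it. VWDE held 18 CpG, and the 4 PROM1 windows held 18, 32, 24 and 6, against a median of 14 over all windows. The motifs searched on both strands were the octamer ATGCAAAT, the SOX core CATTGT, the TATA box TATAAA, the CCAAT box CCAAT, the GC box GGGCGG and the TCF/LEF core CTTTGA. They occurred in 1.77%, 10.8%, 11.5%, 34.6%, 45.0% and 12.9% of all windows. No overlap between different motifs occurred in the printed windows. PTPRZ1 held 2 GC boxes, VWDE 1 GC box, the printed PROM1 window 1 CCAAT box, and the GRPR window 0 matches. Of the PROM1 windows not printed, the second held 2 GC boxes, the third 1 GC box and the fourth 1 TCF/LEF core. Of the other members, PTN (10 CpG) held a CCAAT box and GRP (27 CpG) a TATA box and a GC box, while MDK had no window in the set used. A match describes letters in this window only. PTPRZ1, PTN and VWDE lie on chromosome 7, which carries 4.53% of the genes tested with a known chromosome.

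Marker genes separated both derivatives from hESC more clearly than SMC from INM, and the INM arrays stood apart from each other. The summed linear signal of 10 pluripotent cell markers was 16282 and 16756 on the hESC arrays, 3650 and 6160 on the INM arrays, and 1130 and 1152 on the SMC arrays. All 7 nascent mesoderm markers were called higher in INM than in hESC, and 7 of 7 in SMC than in hESC. Of 8 smooth muscle markers, 5 were called higher in INM than in hESC and 7 in SMC than in hESC. In SMC versus INM 2 of the 8 were called higher and 1 lower, MYOCD at -1.74, a coactivator of smooth muscle genes. More genes had replicates over 1 log2 unit apart in INM (700) than in hESC (16) or SMC (11). Fibroblast markers were called higher in 7 of 7 in SMC versus hESC, with sums of 23299 and 22315 in SMC and 1058 and 1053 in hESC, and endothelial markers in 3 of 7. The endothelial sum was 1072 and 4537 on the INM arrays. The part of these cell types in the changes reported here was not tested. In bulk RNA, fewer cells of a type and less RNA per cell cannot be told apart. Across all genes, limma called 33.8% of genes between INM and hESC at an adjusted p under 0.05. The share was 21.0% between SMC and INM, and 37.2% between SMC and hESC. Calls were 56.1% higher ones in INM versus hESC and 52.9% in SMC versus hESC. With median centring these shares were 76.2% and 66.5%, with quantile normalization 66.1% and 58.3%, and with median centring the median change of all genes in INM versus hESC was 0.16 in place of -0.03. The low-signal limit was 5.04, which is the smallest of the 6 array medians over probe sets without a name. No fold is given for means under it, since such a level is not shown to lie above background.

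**Figure D1:**
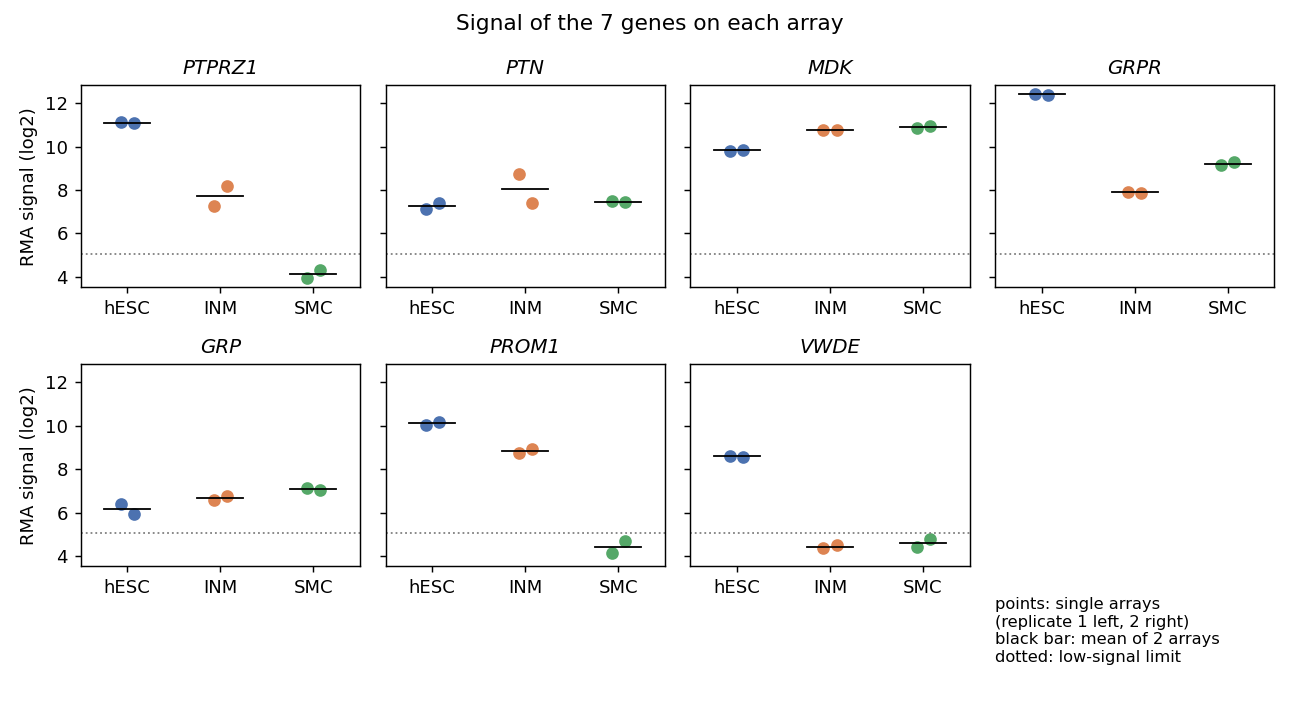
Log2 RMA signal (vertical axis) of each of the 7 genes on the single arrays of hESC, INM and SMC (points, replicate 1 left and 2 right), with the group mean as a black bar and the low-signal limit of 5.04 dotted. PTPRZ1, PROM1 and VWDE end under the limit in SMC, and GRPR is lowest in INM at 7.92 and 7.87.

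PTPRZ1 stood lower at each stage than at the one before. Its signal (probe set 8135774) was 11.12 and 11.07 on the hESC arrays, 7.25 and 8.18 on the INM arrays, and 3.94 and 4.33 on the SMC arrays. No array of one stage reached the range of another, and the SMC level lay under the low-signal limit. The share of all genes whose groups were also separate was not counted, here and for MDK, GRPR, GRP and PROM1 below. With so few arrays a group, separate groups can also arise without a difference in level. Separation of groups is therefore given as a description of the arrays only. The log2 difference of INM from hESC was -3.38 (SE 0.30), 10.4-fold, and that of SMC from hESC was -6.96 (SE 0.30). Differences from a level under the limit are measured against a signal not shown to be expression, here and for PROM1 and VWDE, so their exact size cannot be read as a change in RNA.

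The log2 difference of SMC from INM was -3.58 (SE 0.30) for PTPRZ1. The INM arrays were 0.94 apart, a gap larger than that of 95.5% of genes, with replicate 2 the higher. The summed pluripotent marker signal was also higher in INM replicate 2, at 6160, than in replicate 1, at 3650, and its part in the PTPRZ1 signal was not tested. Without INM replicates 1 and 2 in turn, this difference was -4.05 and -3.11.

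The ligands of PTPRZ1 did not follow it. MDK (probe set 7939665) read 9.81 and 9.83 on the hESC arrays, 10.77 and 10.75 on the INM arrays, and 10.84 and 10.95 on the SMC arrays. Every array of the derivatives was above both hESC arrays. MDK rose in INM versus hESC by 0.94 (1.92-fold, SE 0.11, limma adjusted p = 0.00139), where 18.9% of all genes were called higher. It rose in SMC versus hESC by 1.07 (2.1-fold, SE 0.11, limma adjusted p = 0.000574), where 19.7% were called higher. Between SMC and INM its change of 0.13 (SE 0.11, adjusted p = 0.440) did not pass. Both calls were kept with any 1 of the 6 arrays left out.

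PTN (probe set 8143144) read 7.14 and 7.38 on the hESC arrays, 8.73 and 7.38 on the INM arrays, and 7.49 and 7.44 on the SMC arrays. One INM array was above all others and the second matched the higher hESC array to 2 decimals. The gap of 1.35 between the INM arrays was larger than that of 98.2% of genes. PTN passed the test in none of the comparisons, with a change of 0.80 (SE 0.39, adjusted p = 0.165) between INM and hESC, -0.59 (SE 0.39, adjusted p = 0.342) in SMC versus INM and 0.21 (SE 0.39, adjusted p = 0.716) in SMC versus hESC. The changes that involve INM depended on which INM array was kept. Without INM replicate 1 the changes were 0.12 and 0.08 in the first and second comparison, and without INM replicate 2 they were 1.47 and -1.26 and were called (limma adjusted p = 0.000177 and 0.000599). Those fits have 1 INM array, which is assumed to vary like the arrays of the other groups.

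PTPRZ1, PTN and PROM1 are known in neural progenitors, so markers of that lineage were read beside them. Of 12 measured neural progenitor and glial markers, 1 was called higher in INM versus hESC (NES) and 0 lower. These are 8.3% and 0.0%, beside 18.9% and 14.8% of all genes. Against INM, 0 of these markers were called higher in SMC and 3 lower (FABP7, NES and SLC1A3). The shares were 0.0% and 25.0%, beside 9.94% and 11.1% of all genes. Against hESC, 0 were called higher in SMC and 2 lower (FABP7 and SLC1A3). Here the shares were 0.0% and 16.7%, beside 19.7% and 17.6% of all genes, so the lower share did not exceed that of all genes. Their summed linear signal was 1364 and 1355 on the hESC arrays, 1963 and 1412 on the INM arrays, and 969 and 1034 on the SMC arrays. PAX6 and NEUROG2 lay under the low-signal limit in all 3 groups.

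GRPR had the lowest level in INM, and SMC stood between INM and hESC. Its signal (probe set 8166202) was 12.41 and 12.39 on the hESC arrays, 7.92 and 7.87 on the INM arrays, and 9.15 and 9.29 on the SMC arrays. The 3 groups did not overlap, and arrays of a group lay within 0.14 of each other. GRPR was chosen for its fall from hESC, and the share of all genes without overlap was not counted. The separation from hESC is therefore no separate evidence of a fall. The log2 difference of INM from hESC was -4.50 (SE 0.11), 22.7-fold, and that of SMC from hESC was -3.18 (SE 0.11), 9.08-fold.

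GRPR was higher in SMC than in INM, with a log2 difference of 1.32 (2.5-fold, SE 0.11) that lay between 1.25 and 1.39 with any 1 array left out. Its level stayed above the low-signal limit in all 3 groups.

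GRP (probe set 8021461) read 6.39 and 5.95 on the hESC arrays, 6.58 and 6.75 on the INM arrays, and 7.11 and 7.03 on the SMC arrays. The arrays of the 3 groups did not overlap, with SMC highest and hESC lowest. GRP rose in SMC versus hESC by 0.90 (1.87-fold, SE 0.17, limma adjusted p = 0.00689), a call that ended without SMC replicate 1 (0.86, adjusted p = 0.0572). The change of 0.50 in INM versus hESC (SE 0.17, adjusted p = 0.0658) and that of 0.41 in SMC versus INM (SE 0.17, adjusted p = 0.145) did not pass. The INM versus hESC change passed with median centring (0.68, limma adjusted p = 0.0219) and with quantile normalization (0.71, limma adjusted p = 0.0206). It also passed without hESC replicate 1 (0.72) or INM replicate 1 (0.58).

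PROM1 had its larger log2 difference between INM and SMC. The signal (probe set 8099476) was 10.02 and 10.19 on the hESC arrays, 8.73 and 8.91 on the INM arrays, and 4.13 and 4.70 on the SMC arrays. The groups did not overlap, and the SMC arrays lay under the low-signal limit. The log2 difference of INM from hESC was -1.28 (SE 0.20), 2.43-fold, and that of SMC from hESC was -5.69 (SE 0.20). The difference of SMC from INM was -4.41 (SE 0.20).

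VWDE was low in both derivatives. Its signal (probe set 8138277) was 8.62 and 8.58 on the hESC arrays, 4.35 and 4.52 on the INM arrays, and 4.44 and 4.76 on the SMC arrays. Both derivatives lay under the low-signal limit, and their arrays overlapped. The log2 difference of INM from hESC was -4.16 (SE 0.15), and that of SMC from hESC was -3.995 (SE 0.15). The change of 0.17 in SMC versus INM (SE 0.15) turned to -0.0024 with quantile normalization and to -0.15 when both probe sets were averaged, so it has no settled direction. The second VWDE probe set (8138258) read 8.13 and 8.23 on the hESC arrays, 4.64 and 4.83 on the INM arrays, and 4.51 and 4.03 on the SMC arrays, the same course with both derivatives low.

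**Figure D2:**
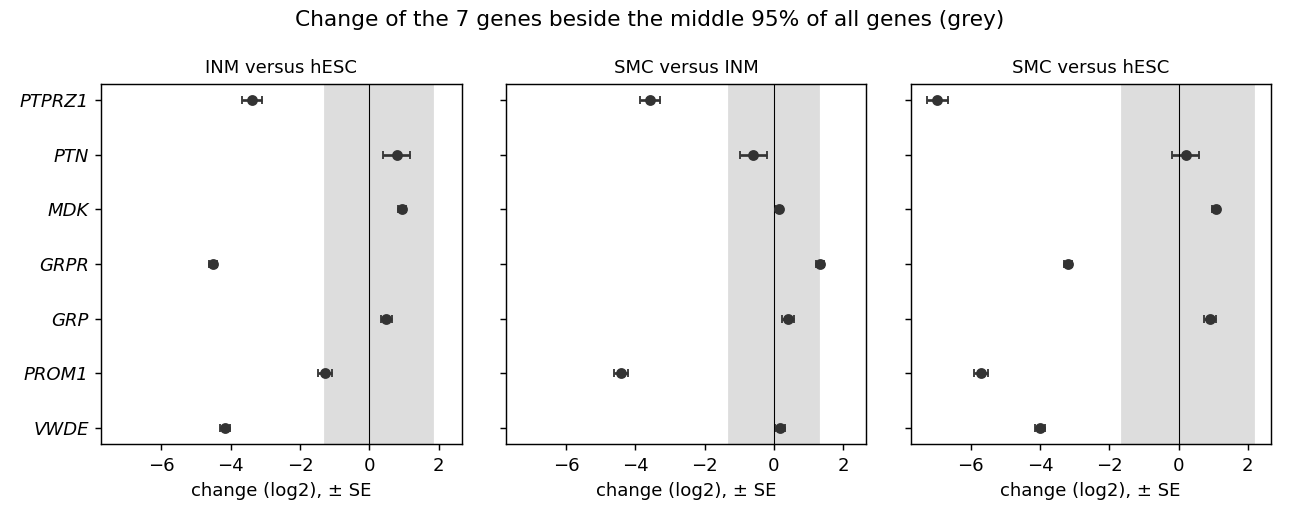
Change on the log2 scale (horizontal axis, point ± SE) of the 7 genes in INM versus hESC, SMC versus INM and SMC versus hESC, with the middle 95% of all genes in grey. In the SMC versus INM panel, PTPRZ1 at -3.58 and PROM1 at -4.41 lie left of the grey band, which runs from -1.28 to 1.31. GRPR at 1.32 lies at its right edge, and the 3 ligands lie inside it.

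The genes of most similar course were found by the root mean square difference of the 6 log2 values, each gene centred on its own mean, over the 6 arrays. For PTPRZ1 they were SFRP2 (0.69), L1TD1 (0.81) and DNMT3B (0.88). For PROM1 they were SFRP2 (0.32), PODXL (0.41) and LIN28A (0.44). SFRP2 encodes a secreted modulator of Wnt signalling, DNMT3B a DNA methyltransferase, and LIN28A an RNA-binding protein of pluripotent cells. SFRP2 read 10.92 in hESC, 8.97 in INM and 5.21 in SMC as group means, so 1 gene was nearest to both. For GRPR they were KCND2 (0.40), SNORA74A (0.43) and PWAR6 (0.47). These had smaller differences between SMC and INM than GRPR, with KCND2 at 4.99 in SMC and 4.30 in INM. Both KCND2 levels lay under the low-signal limit, so the size of its difference cannot be set against that of GRPR. For VWDE they were FAM124A (0.18), CALB1 (0.23) and PRDM14 (0.24), the last a regulator of pluripotency.

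The ligands had small changes, and their nearest genes lay within 0.13. MDK had USP11 (0.04), C12orf57 (0.04) and USP30 (0.04), and GRP had PCED1B (0.05), MEIS3 (0.07) and FOXD1 (0.09). PTN had MEGF9 (0.12), ACKR2 (0.13) and FCER1G (0.13), all with INM replicate 1 above replicate 2. Of the 21 nearest genes, 12 were also found without INM replicate 1, without INM replicate 2 or without SMC replicate 1. Median centring shifts all genes of an array alike, so it cannot change these distances and is no check of them.

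**Figure D3:**
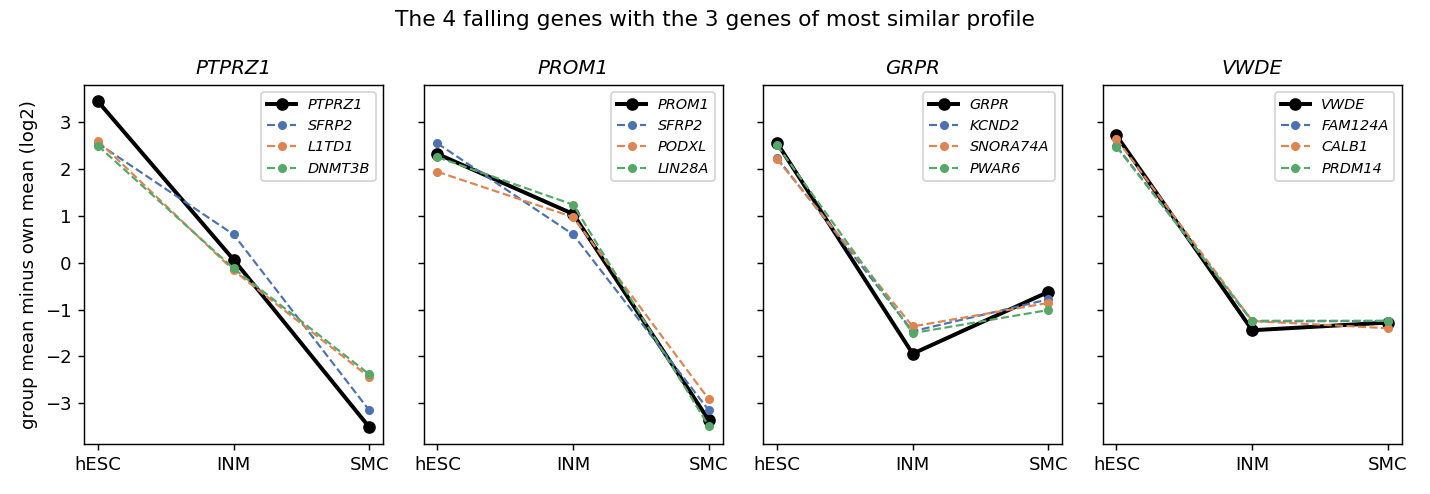
Group means in hESC, INM and SMC minus the gene's own mean (vertical axis, log2) for PTPRZ1, PROM1, GRPR and VWDE (black) and for the 3 genes of most similar course (coloured, dashed). VWDE and its neighbours reach their low level in INM, while PROM1, SFRP2, PODXL and LIN28A have their larger drop between INM and SMC.

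Other receptors and co-receptors of PTN and MDK were higher more often than lower, where PTPRZ1 itself was lower. In INM versus hESC 7 of the 14 genes measured rose, 2 fell (SDC1 and CSPG5) and 5 passed in no direction, beside 18.9% of all genes called higher and 14.8% lower, with a list median of 0.33 beside -0.03 over all genes. NRP1, a semaphorin and VEGF co-receptor, rose by 3.21 (SE 0.39, limma adjusted p = 0.00171), and the integrin subunits ITGAV and ITGA4 rose by 2.22 and 2.27. In SMC versus INM 2 rose (LRP1 at 0.69 and ITGB3 at 1.60), 1 fell (the laminin receptor subunit ITGA6 at -2.24) and 11 did neither, beside 9.94% of all genes called higher and 11.1% lower, with medians of 0.23 and -0.02. In SMC versus hESC 7 rose, 2 fell (NCL at -0.89 and ITGA6 at -3.31) and 5 did neither, with medians of 0.67 and -0.05. The background of SMC versus hESC was 19.7% called higher and 17.6% lower. NRP1 rose by 3.49 and ITGB3 by 3.37 in that comparison.

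Several of these calls ended in fits with 1 array left out at a time, which also change the spread estimate shared by all groups. Those of ITGAV and NRP1 in INM versus hESC were kept with any 1 array left out. The same held for NRP1, ITGB3 and ITGA6 in SMC versus hESC. Calls in INM versus hESC numbered 9 with all arrays, 3 without hESC replicate 1 and 4 without hESC replicate 2. Calls in SMC versus INM numbered 3 with all arrays, 1 without SMC replicate 1, 0 without SMC replicate 2, 6 without INM replicate 1 and 7 without INM replicate 2. That of SDC1 (-0.67) ended without hESC replicate 1 (adjusted p = 0.0823), and that of CSPG5 (-0.42) in 5 of 6 fits with 1 array left out and with both scalings (adjusted p up to 0.555). ITGA4 had INM arrays far apart, with a change of 1.06 without INM replicate 1 and 3.47 without INM replicate 2, and lost its call without either hESC array or either SMC array (adjusted p up to 0.180). In SMC relative to INM, LRP1 and ITGA6 lost theirs without either SMC array and ITGB3 without SMC replicate 2 (adjusted p up to 0.134, 0.0831 and 0.0576). In SMC relative to hESC, NCL lost its call without either hESC array or SMC replicate 2 (adjusted p up to 0.0842).

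Binding partners, scaffolds and substrates of PTPRZ1 moved in both directions. In INM relative to hESC, 7 of the 14 genes measured rose, 3 fell and 4 passed in no direction. These are 50.0% higher and 21.4% lower, beside 18.9% and 14.8% of all genes. The neuronal adhesion genes CNTN1, NRCAM and NFASC fell (-2.5, -0.78 and -0.64), while the matrix glycoprotein gene TNC rose by 3.88 (SE 0.20, limma adjusted p = 8.45e-05) and the scaffold gene MAGI3 by 2.13. With SMC set against INM, 3 rose (CNTN1 at 1.32, TNC at 1.10 and NRCAM at 0.51) and 3 fell (MAGI3 at -1.71, GIT1 at -1.03 and CTNNB1, beta-catenin, at -0.77). With SMC set against hESC, 5 rose (TNC at 4.98, NCAM1 at 1.98, L1CAM at 1.96, FYN at 0.75 and DLG4 at 0.59) and 3 fell (ADD2 at -2.53, CNTN1 at -1.18 and NFASC at -0.93). The shares of higher and lower calls were 21.4% and 21.4% in SMC versus INM, beside 9.94% and 11.1% of all genes. In SMC versus hESC they were 35.7% and 21.4%, beside 19.7% and 17.6% of all genes. The list medians were 0.55, 0.02 and 0.10 in the 3 comparisons, and the middle one turned to -0.03 and -0.02 with median centring and quantile normalization. Without hESC replicate 1 the list had 6 calls in place of 10 in INM versus hESC and 5 in place of 8 in SMC versus hESC, where it also had 5 without SMC replicate 1. Without SMC replicate 2 it had 3 in place of 6 in SMC versus INM.

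The calls of NFASC in INM versus hESC (without hESC replicate 1, adjusted p = 0.0575), TNC in SMC versus INM (without either SMC array, adjusted p up to 0.0928) and CTNNB1 (without SMC replicate 2, adjusted p = 0.0795) ended with fewer arrays. That of NRCAM in SMC versus INM ended in 5 of 6 such fits (adjusted p up to 0.217), and its fall in INM versus hESC was -0.46 with quantile normalization. Relative to hESC, in SMC ADD2 and DLG4 lost their calls without either hESC array or either SMC array, and FYN without hESC replicate 1 or either SMC array. The ADD2 difference itself stayed between -2.58 and -2.48 with any 1 array left out. Its SD was 0.03 in hESC and 0.07 in SMC but 1.57 in INM, and the INM spread enters its SE of 0.62.

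Among the other receptor tyrosine phosphatases, 15 were measured. In INM versus hESC 6 rose, 1 fell (PTPRO at -0.60) and 8 did neither, and PTPRM, PTPRE and PTPRD rose by 1.64, 1.55 and 1.44. Relative to INM, in SMC 1 rose (PTPRN at 0.74), 4 fell (PTPRF at -1.65, PTPRE at -1.02, PTPRU at -0.82 and PTPRD at -0.70) and 10 did neither. In SMC versus hESC 4 rose (PTPRM at 2.13, PTPRN at 1.42, PTPRB at 0.77 and PTPRD at 0.74) and 3 fell (PTPRF at -1.16, PTPRG at -0.86 and PTPRO at -0.68). These shares of higher and lower calls, 40.0% and 6.7% in INM versus hESC, 6.7% and 26.7% in SMC versus INM and 26.7% and 20.0% in SMC versus hESC, stand beside 18.9% and 14.8%, 9.94% and 11.1%, and 19.7% and 17.6% of all genes. Calls in INM versus hESC numbered 4 in place of 7 without any one of the hESC or SMC arrays. Calls in SMC versus INM numbered 1 and 2 in place of 5 without SMC replicate 1 and 2, and 9 without INM replicate 1. Without hESC replicate 1 or SMC replicate 2, SMC versus hESC had 4 in place of 7. PTPRG, the closest relative of PTPRZ1, read 9.85 in hESC, 9.36 in INM and 8.99 in SMC as group means. PTPRO lay under the low-signal limit in INM at 4.74 and in SMC at 4.66, and PTPRB in hESC at 4.45. The exact sizes of their called changes cannot be read as changes in RNA. The list medians were 0.03, -0.09 and 0.11.

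PTPRO lost its calls in both comparisons without either hESC array or either SMC array and with both scalings (adjusted p up to 0.336), and in INM versus hESC also without INM replicate 1, at -0.39. In SMC versus INM, PTPRE and PTPRD lost theirs without either SMC array (adjusted p up to 0.0842 and 0.116), PTPRU without SMC replicate 1 (-0.76, adjusted p = 0.0657) and PTPRN without either hESC array or either SMC array (adjusted p up to 0.188), with a change of 0.48 without INM replicate 2. In SMC relative to hESC, the call ended for PTPRB without hESC replicate 2 or SMC replicate 2 (adjusted p up to 0.0844), for PTPRD without hESC replicate 1 or SMC replicate 2 (adjusted p up to 0.0575) and for PTPRG without hESC replicate 1 (adjusted p = 0.0502).

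Around GRPR and GRP, 3 enzymes that process or break down peptides were higher in SMC. CPE, which trims peptide precursors, rose by 1.42 in SMC versus INM, PAM, which amidates peptide ends, by 0.99 and MME (neprilysin), which degrades peptides, by 1.84 (SE 0.12, limma adjusted p = 0.000227). With SMC set against hESC, the same 3 of 6 measured genes rose, by 1.39, 1.36 and 1.72, and 0 fell. Both comparisons of SMC thus had 50.0% called higher, beside 9.94% of all genes against INM and 19.7% against hESC. Both had 0.0% called lower, beside 11.1% of all genes against INM and 17.6% against hESC. Medians of this list were -0.11, 0.63 and 0.72, and the first turned to 0.07 with median centring and 0.01 with quantile normalization. In INM versus hESC, 2 of these 6 genes were called with median centring or with a trended prior. With quantile normalization 0 were called. In the fit with all arrays and neither a further scaling nor a trended prior, 0 rose and 1 fell. These are 0.0% and 16.7%, beside 18.9% and 14.8% of all genes. That gene, the related receptor gene BRS3, had a change of -0.68, with both group means under the low-signal limit, and that call ended without hESC replicate 1 and with quantile normalization (adjusted p up to 0.0919, at -0.33 with quantile normalization). The sister receptor gene NMBR lay at 4.35 in hESC, 4.24 in INM and 4.42 in SMC, under the same limit, and its ligand gene NMB at 6.63 in hESC, 6.50 in INM and 6.49 in SMC.

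Genes of the Gq, phospholipase C and protein kinase C route also split. In INM relative to hESC, 5 of 16 measured genes rose (PRKCH at 2.54, PRKCE at 1.47, GNA11 at 1.45, PRKCD at 0.60 and GNAQ at 0.58) and 2 fell (PRKCB at -1.61 and ITPR2 at -1.43). In SMC relative to INM, 3 rose (PRKCB at 1.75, PLCB1 at 1.05 and ITPR1 at 0.47) and 6 fell, with PRKCH at -3.72 (SE 0.17, limma adjusted p = 8.73e-05) and ITPR3 at -1.96. Relative to hESC, in SMC 3 rose (PRKCE at 1.96, GNA11 at 1.42 and PLCB1 at 1.37) and 5 fell (ITPR3 at -2.39, PRKCH at -1.18, ITPR2 at -1.11, PLCB3 at -0.67 and PLCB2 at -0.64). The shares of higher and lower calls were 31.2% and 12.5% in INM versus hESC, 18.8% and 37.5% in SMC versus INM and 18.8% and 31.2% in SMC versus hESC, beside the same shares of all genes as above. Without hESC replicate 1 the list had 4 calls in place of 7 in INM versus hESC, and 11 without INM replicate 1. Without SMC replicate 1 and 2 it had 4 and 5 in place of 9 in SMC versus INM. PRKCB was lowest in INM, at 7.62 in hESC, 6.01 in INM and 7.76 in SMC. The list medians were -0.09, -0.11 and -0.28, and the first turned to 0.10 with median centring and 0.08 with quantile normalization.

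The calls of GNAQ and PRKCD ended without hESC replicate 1 (adjusted p = 0.106 and 0.0624) and that of PRKCE in INM versus hESC without either hESC array (adjusted p up to 0.0706). With SMC set against INM, the call of PLCB1 ended without either SMC array (adjusted p up to 0.0764) and that of ITPR1 without either hESC array or either SMC array (adjusted p up to 0.166).

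Near PROM1, PODXL, a sialomucin of apical membranes and of pluripotent cells, had the largest falls of its list in both comparisons of SMC. Its change was -0.97 between INM and hESC, -3.89 between SMC and INM (SE 0.21, limma adjusted p = 0.000140) and -4.86 between SMC and hESC. Of the 12 measured genes of the prominin and apical membrane list, 3 rose in INM versus hESC (RDX at 1.24, PALS1 at 1.04 and HDAC6 at 0.87) and 3 fell (TTYH1 at -1.01, PODXL and PRKCI at -0.55). Relative to INM, in SMC 1 rose (CDHR1 at 1.36) and 4 fell (PODXL, PARD6B at -1.44, PALS1 at -1.19 and RDX at -0.63). In SMC versus hESC 2 rose (RDX at 0.60 and HDAC6 at 0.56) and 4 fell (PODXL, PARD6B at -1.17, TTYH1 at -0.96 and PRKCI at -0.82). The shares of higher and lower calls were 25.0% and 25.0% in INM versus hESC, 8.3% and 33.3% in SMC versus INM and 16.7% and 33.3% in SMC versus hESC, beside 18.9% and 14.8%, 9.94% and 11.1%, and 19.7% and 17.6% of all genes. Calls in INM versus hESC numbered 3 in place of 6 without hESC replicate 1, and those in SMC versus hESC 3 in place of 6 without hESC replicate 1 or SMC replicate 2. For SMC versus INM there were 5 calls with all arrays, 1 without either SMC array, 3 without either hESC array and 8 without INM replicate 1. The list medians were -0.10, -0.29 and -0.28, and the first was 0.09 with median centring. PROM2, the only paralogue of PROM1 on the list, passed the test in none of the 3 comparisons, at 6.54 in hESC, 6.29 in INM and 6.37 in SMC.

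In INM versus hESC, PODXL and PRKCI lost their calls without either hESC array (adjusted p up to 0.0779 and 0.0814), PRKCI also with median centring (-0.36), and PALS1 without hESC replicate 1 (adjusted p = 0.0733). In SMC versus INM, PALS1 and RDX lost theirs without either SMC array (adjusted p up to 0.0859 and 0.198), and CDHR1 and PARD6B without either hESC array or either SMC array, PARD6B also without INM replicate 2 (adjusted p up to 0.137 and 0.220). CDHR1 stood at 0.89 without INM replicate 1 and PARD6B at -0.93 without INM replicate 2. Relative to hESC, in SMC the calls ended for PARD6B without either hESC array or either SMC array and with median centring (adjusted p up to 0.259), for HDAC6 without either hESC array or SMC replicate 2 (adjusted p up to 0.0737) and for RDX without hESC replicate 1 or either SMC array (adjusted p up to 0.143).

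Other surface markers of human pluripotent cells were lower in the derivatives as well. In INM relative to hESC, 0 of 15 measured genes rose and 10 fell (66.7%, beside 14.8% of all genes), with CRIPTO, a co-receptor of NODAL, at -5.83, FZD7, a Wnt receptor, at -2.61 and ALPL, alkaline phosphatase, at -2.0. Without hESC replicate 1 or 2, 5 genes of the list were called in place of 10. In SMC relative to INM, 12 fell (80%, beside 11.1% of all genes) and 1 rose (THY1 at 2.43), with CDH1 at -4.10, PODXL at -3.89 and EPCAM at -3.76. Relative to hESC, in SMC 14 fell (93.3%, beside 17.6% of all genes), with CRIPTO at -6.53, PODXL at -4.86 and EPCAM at -4.54, and THY1 rose by 0.76. The CRIPTO mean was 4.38 in SMC, under the low-signal limit, and 5.08 in INM, close to it. The exact size of its fall in SMC therefore cannot be read as a change in RNA. The list medians were -0.85, -2.24 and -3.31. The call of THY1 in SMC versus hESC ended without either hESC array or either SMC array (adjusted p up to 0.167).

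Genes with a von Willebrand factor D domain were called at about the share of all genes in INM versus hESC and below it in both comparisons of SMC. In INM versus hESC 1 of 13 measured genes rose (BMPER at 2.57) and 3 fell (MUC4 at -0.54, OTOG at -0.51 and SUSD2 at -0.37), or 7.7% and 23.1% beside 18.9% and 14.8% of all genes. All 4 calls ended without either hESC array or either SMC array (adjusted p up to 0.149 for BMPER, 0.237 for MUC4, 0.104 for OTOG and 0.166 for SUSD2), and BMPER stood at 1.32 without INM replicate 2. With quantile normalization MUC4 was at -0.31 and OTOG at -0.20, and SUSD2 was at -0.18 with median centring. With SMC set against INM, 1 fell (SUSD2 at -0.59, a call that ended without either SMC array, adjusted p up to 0.106), and in SMC versus hESC 2 fell (SUSD2 at -0.96 and MUC4 at -0.82). These are 7.7% lower in SMC versus INM and 15.4% lower in SMC versus hESC, beside 11.1% and 17.6% of all genes, with 0 higher in both. With 1 array left out, SMC versus INM had 0 to 2 calls and SMC versus hESC 1 to 4. MUC4 lost its call in SMC versus hESC without hESC replicate 1 or either SMC array (adjusted p up to 0.0685). The list medians were -0.09, -0.0018 and -0.15. The first turned to 0.10 with median centring and 0.14 with quantile normalization, and the third to 0.04 with quantile normalization.

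**Figure D4:**
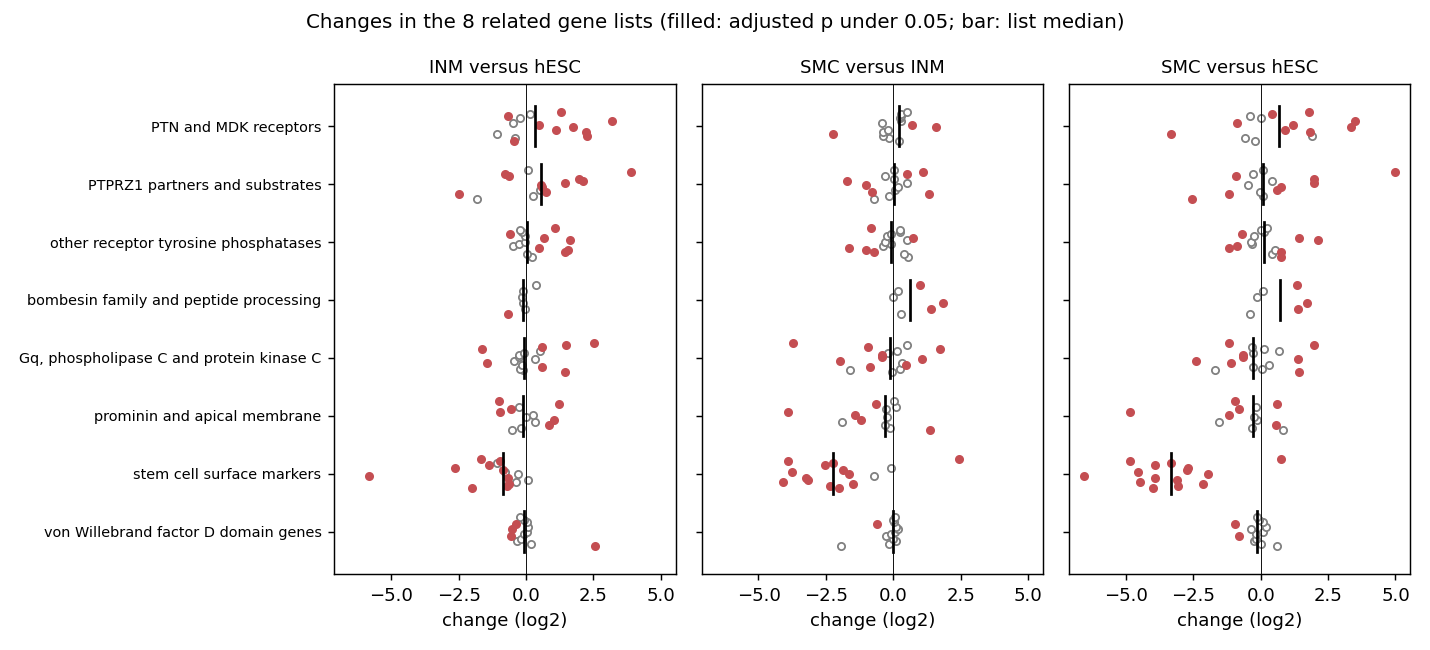
Change on the log2 scale (horizontal axis) of each measured gene of the 8 related lists (rows) in INM versus hESC, SMC versus INM and SMC versus hESC. Filled points are genes called at an adjusted p under 0.05 and black bars are list medians. The stem cell surface markers have medians of -0.85, -2.24 and -3.31, while 12 of the 13 von Willebrand factor D domain genes are open points in SMC versus INM.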

How the data were processed

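The deposited table holds log2 RMA signals of 33297 probe sets on 6 arrays, and RMA and limma are named, without versions, per the submitters' processing notes. Values ran between 1.36 and 14.1, as log2 signals do. The sources used here do not state RMA settings, a genome build or further centring. Of the probe sets, 19460 carried 1 gene symbol in the platform's annotation, updated by Entrez identifier to GRCh38.p14 names for 19429, 1754 carried several and 12083 were unnamed here. Each of 18417 genes was represented by 1 probe set, that of highest average signal. Next, limma was run on 3 group means, in version 3.58.1 in R 4.3.3 (lmFit, eBayes, 3 residual and 3.56 prior degrees of freedom) without further normalization, filter or block. Tests were two-sided, with Benjamini-Hochberg adjustment over all genes and calls under 0.05. The script was tested on simulated data. The number of arrays limits the precision.

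The 7 genes and all gene lists were chosen with earlier results of these data known. Tests of the 7 were kept for the 3 ligands only, since the other 4 were chosen for falls measured on these arrays. Named genes were the 7, the 3 nearest of each, and per list and comparison up to 3 called genes of largest change and all called genes where a direction had 5 or fewer. Alternatives were leaving out each array, a replicate block, median centring, quantile normalization, a low-signal filter, the mean of probe sets, a trended prior and fits of 2 groups only. Summaries, promoter scans and plots used Python 3.11.15.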

Additional observations from a re-analysis of the deposited data

How the results depend on the processing

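With 2 arrays a group, the number of calls changed with the arrays in the fit. Leaving out an array also changes the spread estimate that all groups share, and its degrees of freedom. A change is the same without an array of the group not compared, so there calls moved through that estimate alone. With 1 array left out, the genes called numbered 2939 to 7520 in INM versus hESC (6217 with all arrays), 1134 to 6143 in SMC versus INM (3874) and 3803 to 9200 in SMC versus hESC (6859), and with only the 4 arrays of the groups compared SMC versus INM had 2541. PTN ran from 0.12 to 1.47 in INM versus hESC and from -1.26 to 0.0818 in SMC versus INM, and GRP from 0.27 to 0.72 in INM versus hESC and from 0.68 to 1.13 in SMC versus hESC. Both MDK rises against hESC were called under every alternative run. In INM versus hESC, median centring gave GRP 0.68 (called), GRPR -4.32, PROM1 -1.10 and VWDE -3.97, and quantile normalization gave GRP 0.71 (called), GRPR -4.45 and VWDE -4.03. In SMC versus hESC median centring gave GRPR -3.05. The mean of both probe sets gave VWDE -3.80 in INM versus hESC and -0.15 in SMC versus INM, where quantile normalization gave -0.0024. The cause of these shifts was not tested beyond the settings' own construction.

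The replicate numbers are not stated to mark a shared culture, and replicate differences correlated at 0.07 between INM and hESC, -0.07 between SMC and INM and -0.12 between SMC and hESC over genes. With the replicate block 5713, 3392 and 6429 genes were called in INM versus hESC, SMC versus INM and SMC versus hESC, and the block changed no call of the 3 ligands. Among named list genes it ended the calls of CSPG5 and SUSD2 in INM versus hESC (adjusted p = 0.0659 and 0.0664), NRCAM in SMC versus INM (0.0636) and DLG4 in SMC versus hESC (0.0501). Of the named list calls, 19 of 35, 14 of 31 and 28 of 41 were kept in these comparisons under all alternatives. Signal over background is not given for these arrays, so levels under 5.04 are not shown to be expression.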
